A study of Mus musculus with 9 samples.

Results

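Metallothioneins are small, cysteine-rich proteins that bind zinc and copper and buffer the free level of these metals in the cell. *Mt1* and *Mt2* encode the widely expressed isoforms, which are induced by metals, glucocorticoids and oxidants. Their induction by metals depends on the zinc-sensing transcription factor MTF1, which binds metal response elements in their promoters. *Mt3* encodes the isoform of the brain, once named growth inhibitory factor, and *Mt4* encodes that of stratified epithelium. In the brain, astrocytes are a main source of metallothioneins, together with cells of the meninges, choroid plexus and vessels, and *Mt3* is also expressed by some neurons.

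*Mt1*, *Mt2* and *Mt3* were taken by gene symbol and are 3 of the 55401 genes in the count table. All 3 passed the filter on low counts, as did 17818 genes in all. They were chosen by their HET to WT log2 fold change in these same embryos, which was already known, so that difference is given as a description, with no p-value. The forebrain of female mouse embryos at E16 to E17 was compared between 5 WT embryos, labelled Npas+/+, and 4 HET embryos, labelled Npas+/-, which carry a constitutive deletion of 1 copy of *Npas3*, the gene of a bHLH-PAS transcription factor. Per the study's methods the mice were on the C57BL/6J background, and the WT embryos were littermates born to HET parents or to a HET and a C57BL/6J parent. The deletion is present in every cell, so a difference is not tied to a cell type. The number of litters is not given in the sources used here, so the spread between embryos may hold litter effects.

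Total counts were 42640218 to 62830060 per embryo. The sample labels name astrocytes, whereas the samples are bulk forebrain, where the 10 neuron markers summed to 6370 to 7520 CPM (counts scaled to library size) and the 18 radial glia and astrocyte markers to 3850 to 4640 CPM. In bulk RNA, fewer cells of a type and less RNA per cell cannot be told apart. *Npas3* itself averaged 36.2 ± 4.18 CPM in the WT group (SD, n = 5) against 29.5 ± 3.09 CPM in the HET group (SD, n = 4), and the groups overlapped at HET embryo 7 (34.1 CPM) and WT embryo 16 (29.7 CPM). RNA of choroid plexus, where *Ttr* is the leading transcript, was unequal: WT embryos 15, 16 and 41 held 2130 to 2630 CPM of *Ttr* and HET embryo 24 held 467 CPM, but the other 5 embryos held 0.77 to 11.7 CPM.

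The mouse metallothionein genes form a cluster on the plus strand of chromosome 8 (GRCm38) that spans 43131 bases, from the start of *Mt4* at 94137197 to the end of *Mt1* at 94180327. *Mt3* (ENSMUSG00000031760) lies at 94152607 to 94154146, *Mt2* (ENSMUSG00000031762) at 94172664 to 94173568 and *Mt1* (ENSMUSG00000031765) at 94179082 to 94180327. Each is a short gene whose full transcript has 3 exons, with a length of 536 bases for *Mt3*, 511 for *Mt2* and 549 for *Mt1*. *Gm45774*, an antisense gene of the minus strand, overlaps *Mt2* over 73.5% of its exonic length. No exon of another gene overlaps *Mt1* or *Mt3*. No stretch of 50 bases from the transcripts of *Mt1*, *Mt2* or *Mt3* (0 of 1292, 0 of 554 and 0 of 1065) occurred on the same strand in a transcript of another gene, *Mt4* included.

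The promoters of the 3 genes are shown because the 3 transcripts were low together and because the metal response element, the site of MTF1, is the classical element of this family. The sequences are the 250 bases before each RefSeq start on GRCm38.p6, written 5′ to 3′, and capitals mark the core of a metal response element (TGCACNC or TGCGCNC, on either strand).
*Mt1* promoter, chr8:94178839-94179088, plus strand: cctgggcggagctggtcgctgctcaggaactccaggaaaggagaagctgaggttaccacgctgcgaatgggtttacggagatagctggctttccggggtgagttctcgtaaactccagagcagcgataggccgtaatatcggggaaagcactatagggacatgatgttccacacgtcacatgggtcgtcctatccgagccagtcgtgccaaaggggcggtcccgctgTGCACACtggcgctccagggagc
*Mt2* promoter, chr8:94172368-94172617, plus strand: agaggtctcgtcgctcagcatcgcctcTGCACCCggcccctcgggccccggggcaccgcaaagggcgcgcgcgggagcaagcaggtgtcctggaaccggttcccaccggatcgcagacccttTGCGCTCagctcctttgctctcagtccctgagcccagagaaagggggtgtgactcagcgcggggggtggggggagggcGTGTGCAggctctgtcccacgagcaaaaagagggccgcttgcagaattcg
*Mt3* promoter, chr8:94152357-94152606, plus strand: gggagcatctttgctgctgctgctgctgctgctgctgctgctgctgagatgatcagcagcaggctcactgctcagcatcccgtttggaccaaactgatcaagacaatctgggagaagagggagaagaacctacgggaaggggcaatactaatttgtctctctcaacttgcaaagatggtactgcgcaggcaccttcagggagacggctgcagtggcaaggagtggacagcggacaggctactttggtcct

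In the 300 bases from 250 before to 50 after these starts, the core occurred 3 times in *Mt1*, 4 times in *Mt2* and once in *Mt3*. The matches not in capitals above, 2 of *Mt1*, 1 of *Mt2* and 1 of *Mt3*, lie after the start. Of 32851 RefSeq promoters of the same length, 25.7% held at least 1 core, 1.97% at least 3 and 0.517% at least 4. The RefSeq start of each gene lies upstream of other annotated starts, and the last start in the GENCODE annotation is 152 bases farther downstream for *Mt1*, 242 for *Mt2* and 139 for *Mt3*. In the 300-base window around those last starts, a window chosen after the first result was seen, *Mt1* held 5 cores, *Mt2* held 4 and *Mt3* held 3. The *Mt1* cores began at positions −175, −150, −132, −68 and −54 from that start, and those of *Mt3* at −112, −85 and −53. At least 5 cores occurred in 0.143% of the 32851 promoters. That share is for windows around RefSeq starts, and none was computed for windows around last starts. The E-box CANNTG, the general consensus of bHLH factors, occurred once in *Mt1*, once in *Mt2* and 0 times in *Mt3* around the RefSeq starts, and 72.3% of all promoters held it. Around the last starts it occurred once in each of the 3 genes. Around the RefSeq starts, the core ACGTG, which several bHLH-PAS factors bind, occurred once in *Mt1* and 0 times in *Mt2* and *Mt3*, against 19.6% of all promoters with a match. The antioxidant element core TGACNNNGC occurred once in *Mt2* and 0 times in *Mt1* and *Mt3* (12.4% of all promoters). Around the last starts, ACGTG again occurred once in *Mt1* and 0 times in *Mt2* and *Mt3*, whereas TGACNNNGC occurred once in *Mt1* and 0 times in *Mt2* and *Mt3*. The full palindromic glucocorticoid element occurred in none of the 3 windows and in 0.00913% of all promoters. Both strands were searched for every motif, and no match of a motif overlapped a match of another around the RefSeq starts.

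*Mt3*, the brain isoform, was the most abundant of the family. *Mt3* was at 50.4 CPM in WT embryo 5, 50.4 in WT embryo 15, 56.8 in WT embryo 16, 52.2 in WT embryo 41 and 45.0 in WT embryo 43. It was at 6.47 CPM in HET embryo 5, 12.1 in HET embryo 6, 18.9 in HET embryo 7 and 13.8 in HET embryo 24. Every HET embryo lay below every WT embryo, and the lowest WT value was 2.38 times the highest HET value. The mean was 51.0 ± 4.25 CPM in the WT group (SD, n = 5) and 12.8 ± 5.13 CPM in the HET group (SD, n = 4), so that HET embryos held 25.2% of the WT level and had a log2 fold change (log2FC, HET over WT) of −1.99 ± 0.24 (SE).

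*Mt1*, the inducible isoform with the most reads, was at 13.3 CPM in WT embryo 5, 11.6 in WT embryo 15, 18.2 in WT embryo 16, 14.9 in WT embryo 41 and 14.4 in WT embryo 43. In the HET embryos *Mt1* was at 3.77 CPM in embryo 5, 2.61 in embryo 6, 3.16 in embryo 7 and 2.48 in embryo 24. The groups were again apart, with the lowest WT value 3.07 times the highest HET value. The mean was 14.5 ± 2.43 CPM in the WT group (SD, n = 5) and 3.0 ± 0.589 CPM in the HET group (SD, n = 4), which is 20.8% of the WT level and a log2FC of −2.27 ± 0.17 (SE).

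*Mt2* had the fewest reads, with 152 to 286 counts per WT embryo and 35 to 42 per HET embryo. It was at 3.66 CPM in WT embryo 5, 3.36 in WT embryo 15, 4.7 in WT embryo 16, 4.51 in WT embryo 41 and 4.0 in WT embryo 43. In the HET embryos *Mt2* was at 0.758 CPM in embryo 5, 0.978 in embryo 6, 0.827 in embryo 7 and 0.691 in embryo 24. The groups did not overlap, and the lowest WT value was 3.44 times the highest HET value. The mean of *Mt2* was 4.04 ± 0.561 CPM in the WT group (SD, n = 5) and 0.813 ± 0.123 CPM in the HET group (SD, n = 4), 20.1% of the WT level and a log2FC of −2.31 ± 0.17 (SE).

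**Figure D1:**
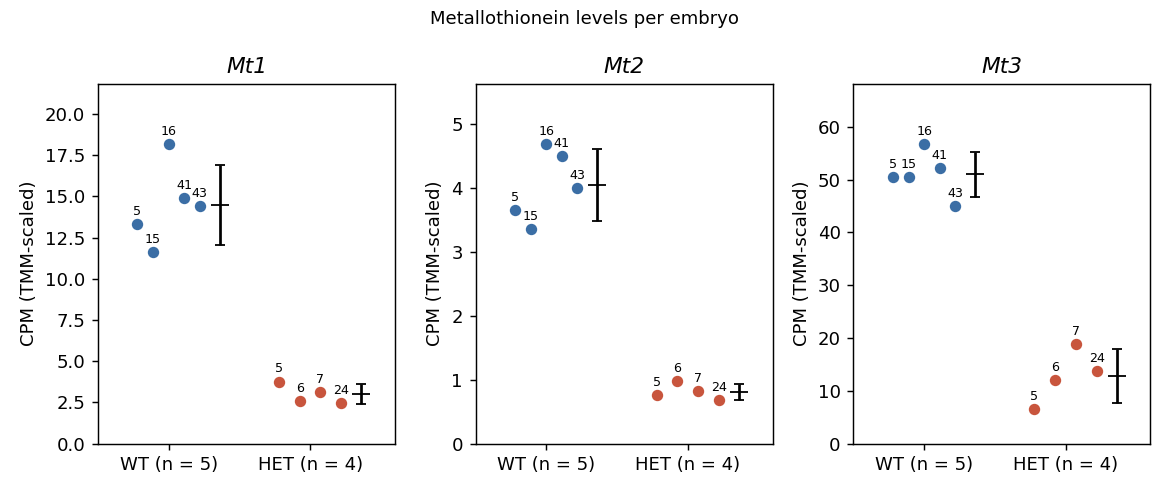
Level of *Mt1*, *Mt2* and *Mt3* in each embryo, in CPM on linear axes from 0. Points are embryos with their number, blue for WT (n = 5) and red for HET (n = 4), and black bars give the mean ± SD. For each gene every HET embryo sits below every WT embryo, and *Mt3* in HET runs from 6.47 CPM in embryo 5 to 18.9 CPM in embryo 7.

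For background, edgeR called 20 genes lower in HET at an adjusted p under 0.05, which is 0.112% of the 17818 genes tested, and the 3 genes are among them by the way they were chosen. In all, 25 genes (0.140%) were called in either direction, of which 5 (0.0281%) were higher in HET. Every HET embryo lay below every WT embryo for 190 genes, or 1.07% of those tested. Because the 3 genes were chosen with this contrast known, nothing is read from these counts.

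*Mt4*, the epithelial isoform, had 0 counts in each of the 9 embryos. At the depth of these libraries, 0 counts allow a level of up to 0.0473 to 0.0722 CPM per embryo, the level of 3 counts, which covers counting error only. The expressed part of the cluster was therefore *Mt3*, *Mt2* and *Mt1*.

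*Gm45774*, whose exon runs antisense across most of *Mt2*, was low as well. It had 27 to 45 counts in each WT embryo and 3, 5, 10 and 14 counts in the HET embryos, a mean of 0.659 ± 0.0493 CPM in the WT group (SD, n = 5) against 0.172 ± 0.107 CPM in the HET group (SD, n = 4). Its log2FC was −1.94 ± 0.35 (SE), which edgeR did not call (adjusted p = 0.0871), although the groups did not overlap. DESeq2 called it (adjusted p = 0.00144), as did edgeR without the filter on low counts (adjusted p = 0.0391). The ratio of *Gm45774* to *Mt2* counts was 0.144 to 0.191 in WT embryos and 0.0833 to 0.35 in HET embryos. The strand setting of the counting is not given in the sources used here, and without strand the reads of *Mt2* and *Gm45774* cannot be told apart, so the level of *Mt2* is uncertain. *Mt1* and *Mt3* share no exonic base with another gene.

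Levels were next compared between the members as RPKM, the CPM value per kilobase of exonic length. In WT embryos *Mt3* was at 47.8 ± 3.98 RPKM, *Mt1* at 11.6 ± 1.95 RPKM and *Mt2* at 6.88 ± 0.955 RPKM (SD, n = 5 each). In HET embryos *Mt3* ran from 6.07 to 17.7 RPKM (n = 4), with *Mt1* at 2.41 ± 0.473 RPKM and *Mt2* at 1.38 ± 0.209 RPKM (SD, n = 4). In both groups the order was *Mt3*, *Mt1*, *Mt2*, with no overlap in RPKM between neighbours in the order. Among the 17804 tested genes with an annotated length, the WT level of *Mt3* was above that of 95.1% of genes, that of *Mt1* above 73.8% and that of *Mt2* above 61.8%. The order of *Mt1* and *Mt2* rests on the length used. With all reads of each gene divided by its bases that no other gene overlaps (156 for *Mt2*), *Mt2* made up 30.3% of the family in WT embryos and *Mt1* 13.5%. These shares hold only if reads in the overlap with *Gm45774* were not counted, which is not known. Without division by length, *Mt1* made up 20.8% and *Mt2* 5.81% in WT embryos.

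*Mt3* made up 72.2 ± 2.58% (SD, n = 5) of the family's reads per exonic length in WT embryos and 74.0 ± 10.7% (SD, n = 4) in HET embryos. The share of *Mt1* was 17.5 ± 1.79% in WT and 16.7 ± 8.3% in HET, and that of *Mt2* was 10.4 ± 0.911% in WT and 9.29 ± 2.86% in HET. The mean shares thus lay within the spread of the HET embryos, while the summed level of the 3 genes was 69.5 ± 6.48 CPM in WT (63.3 to 79.7, n = 5) and 16.7 ± 4.9 CPM in HET (11.0 to 22.9, n = 4).

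**Figure D2:**
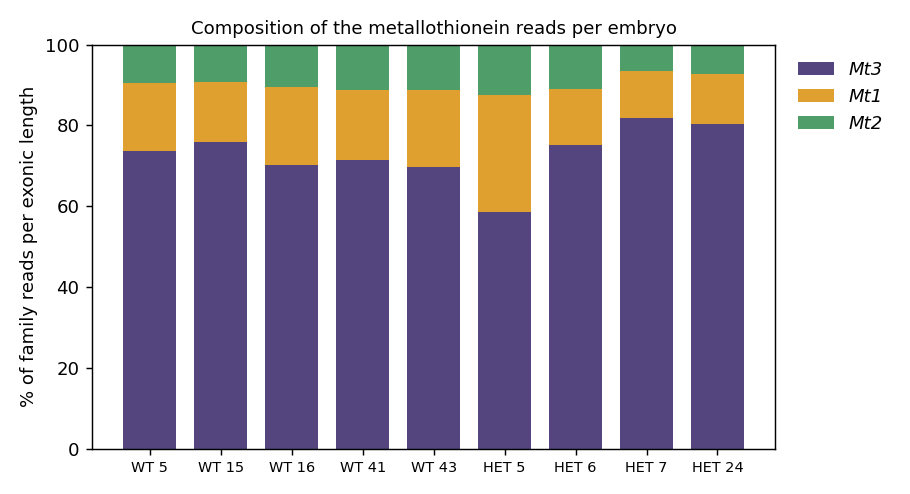
Share of *Mt3*, *Mt1* and *Mt2* in the family's reads per exonic length in each embryo, in percent, as stacked bars that add to 100. The WT bars are alike, with *Mt3* at 69.7% to 75.9%, and HET embryo 5 has the smallest share of *Mt3* (58.5%) and the largest of *Mt1* (29.1%).

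The HET embryos differed among themselves more in *Mt3* than in *Mt1* or *Mt2*. The highest HET value was 2.92 times the lowest for *Mt3*, 1.52 times for *Mt1* and 1.42 times for *Mt2*. In WT embryos this ratio was 1.26 for *Mt3*, 1.57 for *Mt1* and 1.4 for *Mt2*. HET embryo 5 had the lowest *Mt3* of all embryos and the highest *Mt1* of the HET embryos, so that its ratio of *Mt3* to *Mt1* counts was 1.72 against 4.65 to 5.98 in the other HET embryos and 3.12 to 4.36 in WT embryos. The coefficient of variation of *Mt3* in HET embryos was 40.0%, where counting error alone gives 4.04% at its mean of 614 counts. That of *Mt2* in HET embryos was 15.1%, which is no more than the 16.2% that counting error gives at 38.2 counts, so differences in *Mt2* between HET embryos were not detectable at this depth.

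Across the 9 embryos, log2 CPM of *Mt1* and *Mt2* had a Pearson correlation of 0.98, that of *Mt2* and *Mt3* 0.94 and that of *Mt1* and *Mt3* 0.90. The genotype difference that all 3 share enters these values. After the mean of each genotype was subtracted, the correlation was 0.44 for *Mt1* with *Mt2*, 0.17 for *Mt2* with *Mt3* and −0.31 for *Mt1* with *Mt3* (9 embryos). Pooled over both genotypes in this way, the 3 genes did not run closely together, and no correlation was computed for either genotype alone. The WT embryos ranked in the same order for *Mt1* and *Mt2*, and their ratio of *Mt1* to *Mt2* counts was 3.3 to 3.87. In HET embryos this ratio was 2.67 to 4.97, and the spread of *Mt2* (15.1%) was no more than counting error (16.2%). Whether *Mt2* followed the other members there cannot be told.

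The genes most like each member across the 9 embryos, by Pearson's r of log2 CPM over the 14365 genes at 1 CPM or more, were other genes with a log2FC below 0. For *Mt1* these were *Gem* (0.988), *Maged1* (0.984), *Mt2* (0.982), *Rnd1* (0.981) and *Zcchc24* (0.972). For *Mt2* they were *Vit* (0.991), *Mt1* (0.982), *Gem* (0.977), *Jam2* (0.976) and *Amz1* (0.975). For *Mt3* they were *Amz1* (0.966), *Hepacam* (0.965), *Cldn19* (0.963), *Vit* (0.963) and *Fabp7* (0.962). *Hepacam* encodes an adhesion protein of glia and *Fabp7* the brain lipid binding protein of radial glia. *Gem* and *Rnd1* encode small GTP-binding proteins, and *Cldn19* and *Jam2* proteins of cell junctions. The log2FC of these genes ran from −2.95 for *Vit* to −0.28 for *Maged1*. The genotype difference, on which the members were chosen, enters these correlations too, so genes with a like difference between the groups rank high. With Spearman's rho in place of r, 2 of the 15 places were taken by the same genes.

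No other gene around the cluster was called by edgeR. Within 500 kb, 16 other genes were tested, of which 0 were called and 2 had an unadjusted p under 0.05, as did 5.42% of all genes tested. Their log2 fold changes ran from −0.27 to 0.46 with a median of −0.04, against −0.005 for all genes tested. *Bbs2*, a subunit gene of the BBSome of cilia and the nearest tested neighbour on the *Mt4* side, 38.3 kb from the cluster, had the lowest of these values at −0.27 (SE 0.06, edgeR adjusted p = 0.289). DESeq2, which called 0.483% of all genes tested, called 1 of the 16, *Bbs2* (adjusted p = 0.00692). *Nup93*, a nuclear pore gene 34.2 kb beyond *Mt1*, had a log2 fold change of −0.13 (SE 0.10, edgeR adjusted p = 0.911).

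**Figure D3:**
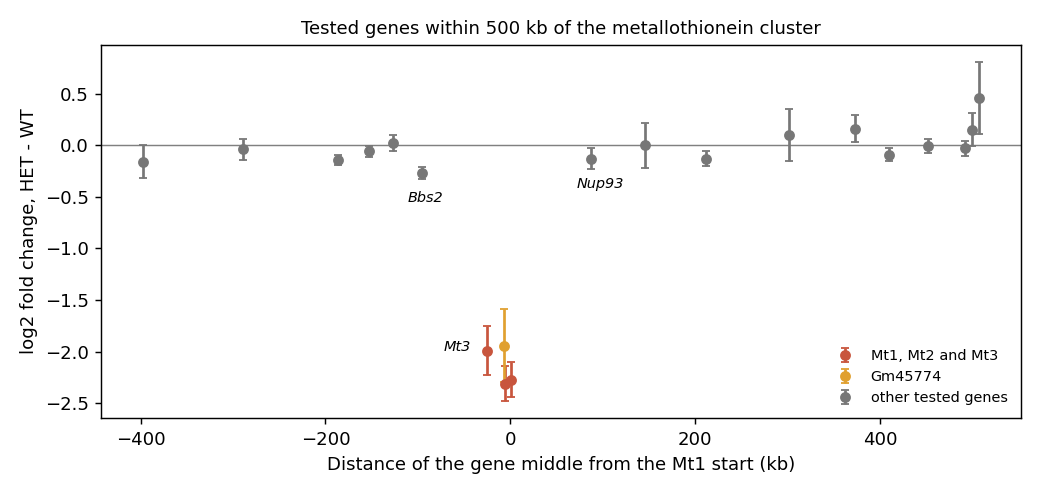
Log2 fold change (HET against WT) with its standard error for the tested genes within 500 kb of the cluster, plotted at the distance of the gene's middle from the *Mt1* start in kb. *Mt1*, *Mt2* and *Mt3* (red) and *Gm45774* (yellow) lie between −1.94 and −2.31, and the 16 other genes (grey) between −0.27 and 0.46.

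For zinc, a list of 25 genes held *Mtf1*, the ZnT transporters of the Slc30 family and the ZIP transporters of the Slc39 family. The transporters were taken by family and not by the metal that each carries. Of the 25 genes, 22 were tested. By edgeR 0 were called higher and 0 lower, and 1, *Slc39a12*, had an unadjusted p under 0.05, against 0.140% called and 5.42% with such a p over all genes tested, so the counts lie near the background. Their median log2 fold change was 0.01. *Mtf1*, whose product drives metallothionein transcription, averaged 30.1 ± 2.61 CPM in the WT group (SD, n = 5) against 32.1 ± 1.7 CPM in the HET group (SD, n = 4), with a log2FC of 0.09 ± 0.08 (SE, edgeR adjusted p = 0.912). *Slc30a1*, which encodes the plasma membrane zinc exporter and is itself a target of MTF1, had a log2 fold change of 0.23 (SE 0.24) at a level of 0.385 to 0.823 CPM. The log2 fold change was 0.04 for *Slc30a3*, the gene of the synaptic vesicle transporter ZnT3, 0.15 for *Slc30a10*, 0.13 for *Slc39a14* and −0.01 for *Slc39a6*, the most abundant gene of the list in WT. *Slc39a12* had the largest difference of the list, −1.08 (SE 0.49, edgeR adjusted p = 0.911), with 0.842 to 6.7 CPM in WT and 1.61 to 2.25 CPM in HET embryos, and its value was −0.11 with choroid plexus markers as a covariate and 0.41 among the embryos with *Ttr* under 100 CPM.

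Copper handling was measured by 12 genes, all tested. By edgeR 0 were called in either direction and 1 had an unadjusted p under 0.05, near the 0.140% and 5.42% of all genes tested, with a median log2 fold change of −0.05. *Cp*, the gene of the copper-carrying ferroxidase ceruloplasmin, averaged 3.23 ± 1.15 CPM in the WT group (SD, n = 5) against 1.55 ± 0.349 CPM in the HET group (SD, n = 4), with a log2FC of −1.05 ± 0.28 (SE). It was not called by edgeR (adjusted p = 0.541) and was called by DESeq2 (adjusted p = 0.049). *Slc31a1*, the copper importer and the most abundant of the list, had −0.21, and *Atp7a*, the copper-exporting ATPase, had −0.09. With the choroid plexus covariate *Cp* had −0.67 and *Slc31a1* −0.09, and among the embryos with low *Ttr* they had −0.58 and 0.04.

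The other known inducers of *Mt1* and *Mt2* were followed through genes that respond to them. Of 14 genes of the glucocorticoid response, all tested, 0 were called by edgeR and 2 had an unadjusted p under 0.05 (0.140% and 5.42% of all genes tested), with a median log2 fold change of −0.01. The receptor gene *Nr3c1* had −0.03 (SE 0.12), *Ddit4*, the most abundant of the list, had 0.32 (SE 0.19), and *Sult1a1* had the largest difference, −0.96 (SE 0.48, edgeR adjusted p = 0.911). Of 14 genes of the NRF2 response to oxidants, 13 were tested, 0 were called by edgeR and 1 had an unadjusted p under 0.05, with a median of 0.01, against the same shares of all genes. *Txnrd1*, thioredoxin reductase and the most abundant of the list, had 0.01 (SE 0.07), and *Nqo1*, a quinone reductase, had the largest difference, −1.54 (SE 0.53, edgeR adjusted p = 0.896). Its level was 0.53 to 4.73 CPM in WT and 0.585 to 1.15 CPM in HET embryos, which overlapped. With the choroid plexus covariate *Nqo1* had −0.63, *Sult1a1* −0.04 and *Ddit4* 0.12, and among the embryos with low *Ttr* they had −0.24, 0.58 and 0.18.

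Markers of the cells that express metallothioneins were set beside these levels. Of the 18 radial glia and astrocyte markers, all tested, 1 was lower and 0 were higher in HET by edgeR, 4 had an unadjusted p under 0.05, and the median log2 fold change was −0.06. Over all genes tested 0.112% were called lower and 5.42% had such a p. The gene called was *Fabp7*, which averaged 619 ± 81.5 CPM in the WT group (SD, n = 5) against 341 ± 51.3 CPM in the HET group (SD, n = 4), with a log2FC of −0.86 ± 0.12 (SE, edgeR adjusted p = 0.0223). With each embryo left out in turn, its log2FC ran from −0.92 to −0.76, and *Fabp7* was not called without WT embryo 15, 41 or 43 or HET embryo 6 or 7. *Vim*, the most abundant of the list, had −0.17 (SE 0.13), and *Aqp4*, the water channel of astrocyte endfeet, had the largest difference, −1.63 ± 0.44 (SE, edgeR adjusted p = 0.555). Without HET embryo 7 *Aqp4* was called, at −2.40 (edgeR adjusted p = 0.0209). *Aqp4* was at 1.17 to 2.02 CPM in WT and 0.163 to 1.07 CPM in HET embryos. *Aldh1l1*, at −1.16 (SE 0.42), and *Tnc*, at 0.30 (SE 0.11), also had an unadjusted p under 0.05 by edgeR. Every HET embryo lay below every WT embryo for 2 of the 18 markers, *Fabp7* and *Aqp4*, against 1.07% of all genes tested. The log2FC was below 0 for 11 of the 18. The summed level of the 18 genes was 4240 to 4640 CPM in WT and 3850 to 4410 CPM in HET embryos. The part of glial cell number in the metallothionein levels was not tested.

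Of the 10 choroid plexus markers, all tested, 0 were called by edgeR and 8 had an unadjusted p under 0.05, where 0.140% of all genes tested were called and 5.42% had such a p. The median log2 fold change was −3.12. Their summed level was 8.19 to 2920 CPM in WT and 11.1 to 522 CPM in HET embryos. *Ttr* had a log2 fold change of −3.58 (SE 2.08). WT embryos 5 and 43, with *Ttr* at 0.77 and 2.14 CPM, had *Mt1* at 13.3 and 14.4 CPM, within the 11.6 to 18.2 CPM of the WT embryos with high *Ttr*, and *Mt3* at 50.4 and 45.0 CPM, against 50.4 to 56.8 CPM. With the mean log2 CPM of these markers as a covariate, the log2 fold change was −2.27 for *Mt1*, −2.30 for *Mt2* and −1.91 for *Mt3*. Restricted to embryos below 100 CPM of *Ttr* (2 WT, 3 HET) it was −2.12, −2.16 and −1.93. The members were chosen on this contrast, so these values are a description. The part of choroid plexus in the metallothionein levels was not tested.

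Of the 12 leptomeningeal markers, 11 were tested, 0 were called by edgeR and 2 had an unadjusted p under 0.05 (0.140% and 5.42% of all genes tested), with a median of −0.36 and a summed level of 20.7 to 89.9 CPM in WT and 29.3 to 41.4 CPM in HET. *Ogn* was the most abundant, with −1.85 (SE 0.76), which was −0.23 with the choroid plexus covariate and 0.33 among the embryos with low *Ttr*. *Aldh1a2* had the largest difference, 1.87 (SE 0.46, edgeR adjusted p = 0.394). It was scarce, at 0.0962 to 0.236 CPM in WT and 0.23 to 0.996 CPM in HET embryos, which overlapped. Of the 12 endothelial markers, all tested, 0 were called by edgeR and 3 had an unadjusted p under 0.05 (against the same shares), with a median of −0.19 and a sum of 262 to 320 CPM in WT and 246 to 274 CPM in HET. *Slc2a1*, the glucose transporter and the most abundant, had −0.10, and *Slco1c1*, a thyroid hormone transporter, had −0.70 (SE 0.28), which was −0.29 with the covariate and −0.05 among the embryos with low *Ttr*. Of the 8 microglial and 10 neuronal markers, all tested, 0 were called by edgeR and 0 had an unadjusted p under 0.05, with medians of 0.06 and 0.04. *Csf1r* had −0.07 and *Itgam* −0.36 among the former, and *Tubb3* −0.06 and *Gad2* −0.15 among the latter. The summed level was 43.4 to 53.9 CPM in WT and 45.4 to 54.9 CPM in HET for microglia, and 6440 to 7130 CPM in WT and 6370 to 7520 CPM in HET for neurons. DESeq2 called 0 genes of these 4 lists. The part of these cell types in the metallothionein levels was not tested.

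**Figure D4:**
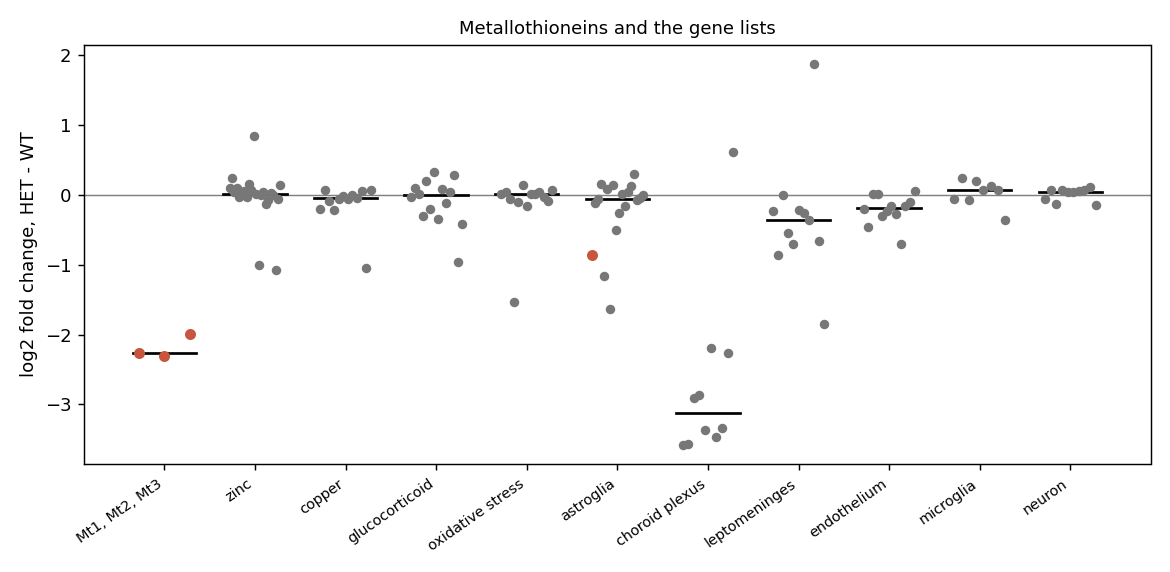
Log2 fold change (HET against WT) of *Mt1*, *Mt2* and *Mt3* and of the tested genes of each list, each point a gene and each black line a median. Red points were called by edgeR at an adjusted p under 0.05, and outside the metallothioneins *Fabp7*, in the astroglia list, is the only red point, while the choroid plexus list has the lowest median, −3.12.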

How the data were processed

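RNA of the forebrain of 9 female embryos was measured. Polyadenylated RNA went into TruSeq libraries, and the authors kept a single read of each pair, aligned reads to GRCm38.p6 with STAR 2.7.9a and counted them on GENCODE release M25 with featureCounts. The deposited unit is the raw count of reads per gene for 55401 genes, and the counts per embryo are 42640218 to 62830060. Settings for strand and multiple alignments are not given in the sources used here.

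Samples were grouped by their labels. Genes were filtered with filterByExpr (minimum count of 10), scaled by TMM and tested over all 17818 remaining genes with edgeR 4.0.16 (R 4.3.3), by its quasi-likelihood test with Benjamini-Hochberg adjustment and 0.05 as the threshold. The test was checked on simulated counts drawn independently for each gene and embryo. These held no litters and no unequal choroid plexus RNA, so the check does not cover either. CPM and RPKM values use the TMM-scaled library sizes, and log2 CPM used a prior count of 2. A fold change's standard error was its size divided by the root of the F statistic. P-values weigh the difference between the groups against the spread between these embryos.

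Positions came from GENCODE M21 (GRCm38), which lists 55141 of the identifiers, and promoters from RefSeq (GRCm38.p6). All 4 metallothioneins matched. Proteins were not used here. The members, gene lists and named genes were chosen with earlier results of these data known. Named genes were the family, *Npas3*, *Ttr*, overlapping genes, the nearest tested neighbours, those called, the most abundant gene and that with the largest difference of each list, 7 preset metal and hormone genes, and the 5 genes most like each member. Alternatives were DESeq2 1.42.0, limma-voom (limma 3.58.1), other scalings and filters, a choroid plexus covariate, embryos with *Ttr* under 100 CPM, leaving out each embryo, other lengths, Spearman's rho and a prior count of 0.5. The length of the 3-exon transcript and the window at the last start were added after the data were seen. *Aldh1l1* and *Tnc* were also named after the data were seen, for their unadjusted p.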

Additional observations from a re-analysis of the deposited data

Results flagged for a closer look

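In 36 groups of 4 or 5 embryos, 5 held a value far from the others of its genotype by Dixon's gap criterion, where about 1.8 come by chance. *Mt1* made up 29.1% of the family's reads per exonic length in HET embryo 5, against 11.7% to 13.8% in the other HET embryos. *Npas3* was at 34.1 CPM in HET embryo 7, against 27.8 to 28.2 CPM in the other HET embryos. HET embryo 7 also had the highest HET level of *Mt3*, whereas WT embryo 16, with the lowest WT *Npas3* (29.7 CPM), had the highest *Mt3*. After the mean of each genotype was subtracted, Pearson's r of *Npas3* was 0.29 with *Mt3*, −0.23 with *Mt2* and −0.27 with *Mt1*. The choroid plexus markers summed to 522 CPM in HET embryo 24, against 11.1 to 24.3 CPM in the other HET embryos. The glucocorticoid response genes summed to 506 CPM in WT embryo 5, against 377 to 398 CPM in the other WT embryos. *Ddit4*, the most abundant of them, was at 112 to 214 CPM in WT embryos. Without WT embryo 5 its log2FC was 0.51, against 0.32 with all embryos. WT embryo 5 had *Mt1* at 13.3, *Mt2* at 3.66 and *Mt3* at 50.4 CPM, against WT means of 14.5, 4.04 and 51.0 CPM. The NRF2 response genes summed to 1130 CPM in WT embryo 16, against 1010 to 1050 CPM in the other WT embryos, and this embryo had the highest levels of *Mt1*, *Mt2* and *Mt3*.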

How the results depend on the processing

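The members were chosen on this contrast, so their values under other settings are a description. When an embryo was left out, the log2 fold change ran from −2.40 to −2.17 for *Mt1*, −2.41 to −2.24 for *Mt2* and −2.23 to −1.77 for *Mt3*. Among the 5 embryos with *Ttr* under 100 CPM *Mt3* was at −1.93, which edgeR did not call. The 17 alternatives of the fit called 0.0671% to 0.348% of the genes they tested lower. No paired analysis was made because the sources used here do not say which embryos shared a litter. An embryo number found in both WT and HET is not stated to mark a pair. Leaving out an embryo gave 13 to 20 genes called lower in HET, 0 to 5 called higher and 0 to 1 of the astroglia list. The lowest of the first counts, 13, was without HET embryo 6, and the higher count was 0 without HET embryo 5 or 7, 1 without HET embryo 6 or WT embryo 41, 2 without WT embryo 15, 16 or 43 and 3 without WT embryo 5. The astroglia count was 0 without WT embryo 15, 41 or 43 or HET embryo 6. DESeq2 called 62 lower and 24 higher genes, 1 of the copper list and 1 neighbour. The choroid plexus covariate left 2 higher genes, and the embryos with low *Ttr* 12 lower, 3 higher and 0 of the astroglia list.

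Without division by length, *Mt1* made up 20.8% of the family in WT and *Mt2* 5.81% in WT and 5.2% in HET. By the 3-exon transcript these were 20.3%, 6.11% and 5.46%. With all reads divided by bases that no other gene overlaps, *Mt1* was 13.5% in WT and *Mt2* 30.3% in WT and 27.5% in HET. *Mt3* was then 56.1% in WT and 59.4% in HET. These shares hold only if reads in the overlap were not counted, which is not known. Spearman's rho kept 2 of the 15 most alike genes across embryos and 4 of 15 within genotype. Directions turned only for genes that were not called. With the choroid plexus covariate the log2 fold change was 1.26 for *Ttr*, −0.02 for *Slc30a3*, 0.04 for *Nr3c1* and −0.05 for *Txnrd1*. Among embryos with low *Ttr* it was 2.19 for *Ttr* itself, on which they were picked, −0.12 for *Slc30a3*, 0.21 for *Nr3c1*, 0.04 for *Slc31a1*, −0.07 for *Txnrd1*, 0.33 for *Ogn*, 0.05 for *Csf1r*, 0.41 for *Slc39a12* and 0.58 for *Sult1a1*. Leaving out an embryo gave −0.08 to 0.04 for *Nr3c1*, −0.02 to 0.05 for *Txnrd1*, −0.02 to 0.15 for *Slc30a3*, −0.02 to 0.36 for *Slc30a1*, −0.03 to 0.25 for *Slc30a10*, −0.36 to 0.07 for *Gad2*, −0.03 to 0.01 for *Slc39a6* and −0.23 to 0.03 for *Atp7a*. The cause of these changes was not tested.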

Other observations

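The genes most like each metallothionein after the mean of each genotype was subtracted differed from those across all 9 embryos, and these values are a description over 9 embryos and 14365 genes. For *Mt3* they were *Gdap1l1* (Pearson's r 0.984), *Fam131c* (0.977), *Pianp* (0.97), *Galnt9* (0.966) and *Mir124-2hg* (0.963), the host transcript of a neuronal miRNA. For *Mt1* they were *Zfp830* (0.957), *Vhl* (0.934), *Tspan14* (0.933), *Parn* (0.931) and *Csrp1* (0.928). For *Mt2* they were *Ctps2* (0.921), *Fbxo6* (0.91), *Tmem216* (0.904), *Efcab11* (0.896) and *Msantd4* (0.89). Within genotype, *Fabp7* had an r of 0.73 with *Mt3*, 0.40 with *Mt2* and −0.07 with *Mt1*. By this r *Fabp7* ranked 838 among the genes most like *Mt3*. *Slc1a3*, also of the astroglia list, had 0.05 with *Mt3*, 0.32 with *Mt2* and 0.08 with *Mt1*.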
